A study of Mus musculus with 8 samples.

Results

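The mouse Cyp2j cluster is a run of 8 related cytochrome P450 genes on chromosome 4, Cyp2j5, Cyp2j6, Cyp2j7, Cyp2j8, Cyp2j9, Cyp2j11, Cyp2j12 and Cyp2j13. Their transcripts were followed in bulk messenger RNA sequencing of 4 control mouse kidneys and 4 kidneys with a conditional knockout of Kdm1a. The 8 genes were found among the 49315 genes of the deposited count table by their Ensembl gene IDs and the symbols of GENCODE M21. The family was chosen by the level of Cyp2j13, which was lower in each knockout library than in the controls. The values of Cyp2j13 in that contrast are therefore a description and carry no test, and counts of members that differ between the genotypes support nothing beyond it.

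The control group is given in the labels as Control, and as wild type in the protocol, and the second group as conditional knockout. Kdm1a encodes LSD1, a histone demethylase. The recombinase that deletes the conditional allele, the cells in which it acts, the strain, and the age and sex of the animals are not given in the sources used here, nor is any allele that the controls may carry. RNA came from frozen kidney tissue and was enriched for polyadenylated transcripts. The labels number the kidneys 1 to 4 in each group without saying that each is from a separate animal, so p-values measure the spread between these libraries, which may be technical in part.

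CYP2J enzymes are membrane-bound monooxygenases of the endoplasmic reticulum. They add oxygen across the double bonds of arachidonic acid and so make epoxyeicosatrienoic acids, lipid mediators that act on blood vessels and on sodium transport in the renal tubule. Phospholipases A2 release the arachidonic acid, P450 reductase and cytochrome b5 deliver electrons, and soluble epoxide hydrolase ends the signal by turning the epoxides into diols. In mouse kidney Cyp2j5 is known as an abundant member of the proximal tubule, Cyp2j6 is best known from the intestine and Cyp2j9 from the brain.

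The 8 genes lie on the minus strand within one block, from Cyp2j13 (ENSMUSG00000028571, chromosome 4, 96027534 to 96077546, GRCm38 coordinates as deposited) to Cyp2j5 (ENSMUSG00000052520, 96628773 to 96664154). Between these ends stand, in order, Cyp2j12, Cyp2j7, Cyp2j11, Cyp2j8, Cyp2j6 and Cyp2j9. Their coding sequences, 1503 to 1512 bases long, were identical at 77.5% to 88.9% of aligned bases over the 28 pairs of members. Cyp2j8 and Cyp2j11 were the closest pair, and Cyp2j5 and Cyp2j8 the most distant. Of all 50-base stretches of each member's transcript, 97.7% to 100% occurred in no other gene, and of all 100-base stretches 100% did. How reads that match several genes were counted is not given in the sources used here.

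The 120 bases before the RefSeq transcription start are shown for the 5 members with enough reads to be compared, because 3 of them were lower in the knockout and 2 were not. They are from RefSeq on GRCm38.p6, minus strand, written 5′ to 3′. The first 3 belong to the members that were lower (Cyp2j5 at chr4:96664120-96664239, Cyp2j11 at chr4:96348681-96348800, Cyp2j13 at chr4:96077548-96077667) and the last 2 to the others (Cyp2j6 at chr4:96553652-96553771, Cyp2j9 at chr4:96591486-96591605). The genes as deposited reach past the RefSeq start in Cyp2j5 (to 96664154), Cyp2j6 (to 96553661) and Cyp2j9 (to 96591578). Part of each of these stretches therefore lies inside the deposited gene. In Cyp2j9 that is most of the stretch, with the marked match. Capitals mark a match to one of the searched motifs.
Cyp2j5: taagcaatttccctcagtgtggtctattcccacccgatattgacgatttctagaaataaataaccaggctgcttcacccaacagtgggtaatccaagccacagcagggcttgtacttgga
Cyp2j11: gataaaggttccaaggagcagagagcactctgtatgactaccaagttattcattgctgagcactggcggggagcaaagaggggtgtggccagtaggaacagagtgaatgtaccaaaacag
Cyp2j13: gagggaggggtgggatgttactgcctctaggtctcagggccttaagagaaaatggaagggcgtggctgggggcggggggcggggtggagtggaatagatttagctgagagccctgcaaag
Cyp2j6: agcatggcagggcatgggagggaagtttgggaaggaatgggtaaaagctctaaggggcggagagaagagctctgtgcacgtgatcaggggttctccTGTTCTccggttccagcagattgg
Cyp2j9: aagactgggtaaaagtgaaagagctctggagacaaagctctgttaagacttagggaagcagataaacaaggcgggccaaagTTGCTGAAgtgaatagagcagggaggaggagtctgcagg

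The search covered each RefSeq window from 250 bases before to 50 bases after the start, on both strands, and 8 such windows were found for 7 members, 2 of them for Cyp2j13. A window for Cyp2j7 was not used here. The HNF4 motif CAAAGTCCA was in none of the 7 members' windows and in 0.475% of all 32851 windows. The half-site of steroid receptors, AGAACA, was in the windows of Cyp2j6, Cyp2j8 and Cyp2j11 and in 19.0% of all windows. In Cyp2j6 it begins 24 bases before the start, as its reverse complement TGTTCT, and in Cyp2j11 it begins 2 bases before the start and runs past the printed stretch. The C/EBP motif TTGCNNAA, where N is any base, was in the windows of Cyp2j8 and Cyp2j9 and in 10.8% of all windows. The letters of the TATA box, TATAAA, were in the window of Cyp2j5 and in 13.6% of all windows. In Cyp2j5 they were found only as the reverse complement TTTATA, on the opposite strand and upstream of the printed stretch. Overlaps between motifs were allowed, and a match describes only these letters.

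Some facts of the whole series bear on every value below. The libraries held between 19524945 and 28544511 counts, so 1 count stood for 0.0350 to 0.0512 CPM (counts per 1000000 library counts). Kdm1a, the targeted gene, was at 110 to 120 CPM in the controls and at 90.9 to 95.3 CPM in the knockouts, a log2 fold change of −0.27 (SE 0.05, edgeR adjusted p 0.0194). That call held in 3 of 8 fits with 1 library removed. Its transcripts therefore remained in each knockout kidney, and counts summed over its exons do not show which carry the deletion. A list of 14 proximal tubule markers had a summed level of 596 to 2344 CPM over the controls and of 85.2 to 394 CPM over the knockouts, and each of the 14 was lower by the edgeR test, with a median log2 fold change of −3.02. Of the 14, 6 or 7 were called without control replicate 1, 3 or 4, 3 without knockout replicate 1 and 1 without knockout replicate 4. Markers of other cells moved too. Of 5 thick ascending limb markers 4 were called lower, with a median log2 fold change of −2.44 and sums of 228 to 1077 CPM in the controls and 9.64 to 308 CPM in the knockouts. Of 5 podocyte markers 2 were called lower, with sums of 378 to 559 and 279 to 340 CPM. Of 3 tested distal convoluted tubule markers 1 was called, the transporter gene Slc12a3, which fell by 2.80 on the log2 scale. The other tested ones were not called, with log2 fold changes of 0.25 and 0.22. Sums of that list overlapped, at 454 to 595 CPM in the controls and 485 to 681 CPM in the knockouts. Of 5 fibroblast markers 1 was called, Pdgfra, which rose by 0.90. The thick ascending limb calls were all lost without any 1 of control replicates 1, 3 and 4 or knockout replicates 1, 2 and 4. The podocyte calls were both lost without any 1 of these but control replicate 1, without which 1 held, and that of Slc12a3 without control replicate 3 or knockout replicates 1 or 4. Pdgfra was called in each of 8 fits with 1 library removed. Slc12a3 and Pdgfra were named after their values were seen. Sums overlapped between the groups for principal cells (347 to 1057 and 117 to 764 CPM) and intercalated cells (30.7 to 98.2 and 10.1 to 52.3 CPM). They also overlapped for nephron progenitors (286 to 475 and 329 to 493 CPM) and endothelium (374 to 533 and 266 to 431 CPM). In each of these 2 lists 1 of 5 markers was called, as lower, and 0 without knockout replicate 4. Of the nephron progenitor markers, Six2 was at 132 ± 33.5 and 182 ± 34.8 CPM and the called Cited1 at 71.7 ± 34.5 and 23.1 ± 2.10 CPM. Both were named after their values were seen. The part of these other cells in the results below was not tested. Control replicate 2 held the lowest marker sum of the controls and knockout replicate 3 the highest of the knockouts. Xist reached at least 964.5 CPM in control replicate 2 and knockout replicates 1 and 4, and the remaining 5 libraries had 6.14 CPM at most, so the sexes are unevenly spread over the groups. Markers of the adrenal gland, a tissue that lies on the kidney, summed to 2668 and 328 CPM in knockout replicates 1 and 4 and to 144 CPM in control replicate 4, against 13.4 to 19.3 CPM in the other 5.

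In the controls the cluster was led by Cyp2j5 and Cyp2j6. On the scale of CPM per kilobase of exon, on which genes can be compared, Cyp2j5 stood at 25.4 ± 17.9, Cyp2j6 at 10.6 ± 2.41, Cyp2j11 at 5.52 ± 3.37, Cyp2j9 at 2.52 ± 0.0608 and Cyp2j13 at 2.37 ± 0.795 (mean ± SD, n = 4). The ranges of neighbours in this order overlapped over the control libraries. Within each control library Cyp2j6 was above Cyp2j11, while the other neighbouring pairs changed order between libraries. Cyp2j7, Cyp2j8 and Cyp2j12 were far lower, at 0.216, 0.101 and 0.0352 CPM per kilobase, and the highest of them, Cyp2j7, lay below Cyp2j13 in each control. In the knockouts the order was another one. Cyp2j6 led at 8.46 ± 0.286 CPM per kilobase, followed by Cyp2j9 at 2.75 ± 0.125, and these stood apart from each other and from Cyp2j5 at 0.732 ± 0.741. Cyp2j5 overlapped Cyp2j11 at 0.667 ± 0.264, and Cyp2j13, at 0.0840 ± 0.0392, overlapped the barely detected Cyp2j7 and Cyp2j8.

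**Figure D1:**
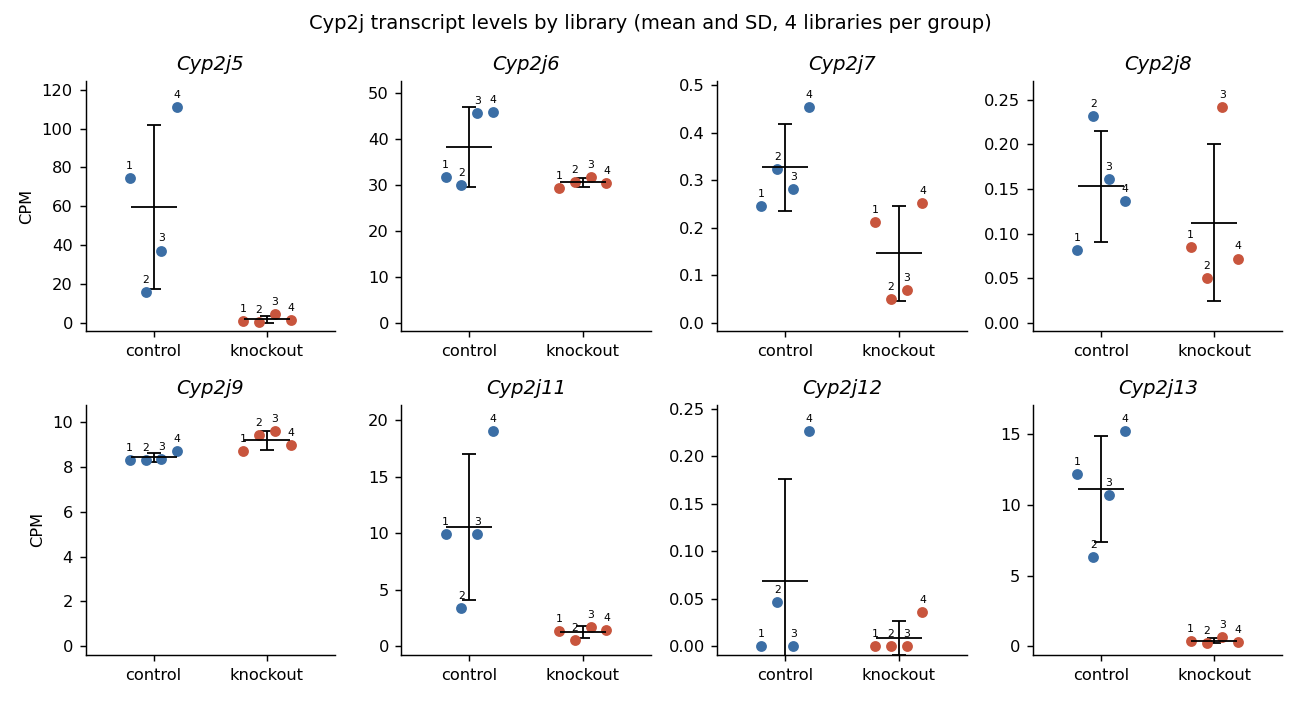
Level of each Cyp2j gene in CPM (vertical axis, one scale per panel) in the 4 control (blue) and 4 knockout (red) libraries; numbers are replicates, the wide line is the mean and the bar the SD, cut at the axis where it would pass below 0. Cyp2j5, Cyp2j11 and Cyp2j13 separate the groups, while Cyp2j6 and Cyp2j9 overlap near 30 and 9 CPM.

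Cyp2j5, the epoxygenase of the family best known from mouse kidney, was the member with the highest level in the controls. Its control libraries 1 to 4 held 74.3, 15.8, 37.1 and 111 CPM, and its knockout libraries 0.845, 0.402, 4.26 and 1.37 CPM. Each knockout lay below each control, and control replicate 2 and knockout replicate 3 were nearest to each other. The controls themselves spread over 7.05-fold. The mean fell from 59.6 ± 42.0 to 1.72 ± 1.74 CPM, to 2.88% of the control level, a log2 fold change of −5.05 (SE 0.78, edgeR adjusted p 0.0120). Without knockout replicate 4 the log2 fold change was −4.92 and the adjusted p 0.0530. In bulk RNA, fewer cells of a type and less RNA per cell cannot be told apart, here and in what follows.

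Cyp2j13, the member for which the family was picked, had moderate levels in the controls, at 12.2, 6.31, 10.7 and 15.3 CPM. The knockout libraries held 0.380, 0.251, 0.657 and 0.288 CPM, that is 9, 5, 19 and 8 counts against 298, 136, 266 and 336 in the controls. Control replicate 2 was again the lowest control and knockout replicate 3 the highest knockout, and the groups were far apart. The mean of the knockouts, 0.394 ± 0.184 CPM, was 3.54% of the 11.1 ± 3.73 CPM of the controls, and the fitted log2 fold change was −4.77 (SE 0.38). The controls of Cyp2j13 spread over 2.42-fold, less than those of Cyp2j5. A processed pseudogene, Hspe1-ps6, lies in an intron of Cyp2j13 on the same strand and shares no exon base with it. Since its knockout levels were so low, Cyp2j13 passed the filter on low counts through its control libraries.

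Cyp2j11 (ENSMUSG00000066097, chromosome 4, 96294508 to 96348662) lies between these genes. It was at 9.91, 3.38, 9.93 and 19.1 CPM in the controls and at 1.39, 0.552, 1.73 and 1.44 CPM in the knockouts. The knockouts were below the controls in each library, with the same control and the same knockout nearest to each other as for Cyp2j5. The mean fell from 10.6 ± 6.46 to 1.28 ± 0.507 CPM, for a log2 fold change of −3.02 (SE 0.52, edgeR adjusted p 0.0143). Without knockout replicate 4 it was −3.06, with an adjusted p of 0.0566.

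Cyp2j6 (ENSMUSG00000052914, chromosome 4, 96516138 to 96553661) was present at 31.7, 29.9, 45.6 and 45.8 CPM in the controls and at 29.2, 30.7, 31.7 and 30.3 CPM in the knockouts. Control replicates 3 and 4 were high, and replicates 1 and 2 lay among the knockouts. The means were 38.2 ± 8.67 and 30.5 ± 1.03 CPM, and the log2 fold change of −0.33 (SE 0.15) did not pass the test (edgeR adjusted p 0.145). It passed without control replicate 2, at −0.43 and an adjusted p of 0.0262.

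Cyp2j9 (ENSMUSG00000015224, chromosome 4, 96568429 to 96591578) lies beside Cyp2j5 and was the steadiest member. The controls held 8.32, 8.30, 8.35 and 8.73 CPM, and the knockouts 8.70, 9.44, 9.62 and 8.99 CPM. Control replicate 4 was above knockout replicate 1, and the other values did not cross. The means were 8.42 ± 0.203 and 9.19 ± 0.418 CPM, with a log2 fold change of 0.13 (SE 0.10, edgeR adjusted p 0.403). On CPM of the plain library totals, without scaling between libraries, the means were 8.20 and 9.41 CPM and the knockouts lay above the controls in each library.

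Cyp2j7, Cyp2j8 and Cyp2j12 had too few reads to pass the filter on low counts. Cyp2j7 had 6, 7, 7 and 10 counts in the controls and 5, 1, 2 and 7 in the knockouts. Cyp2j8 had 2, 5, 4 and 3 counts in the controls and 2, 1, 7 and 2 in the knockouts. Cyp2j12 had 1 and 5 counts in control replicates 2 and 4, 1 count in knockout replicate 4 and 0 in the other 5 libraries. At this depth a count of 0 allows up to 3 counts, which is 0.105 to 0.154 CPM in those libraries. These limits cover counting error only. Without the filter, edgeR tested 7 members other than Cyp2j13 and called 2, Cyp2j5 and Cyp2j11. None of these 3 genes was called there, and at such counts a difference can be missed.

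Of the 8 members, 5 passed the filter on low counts. The groups did not overlap for 3 of them, with the knockouts below in each case, and the edgeR test called Cyp2j5 and Cyp2j11 lower. Over all genes tested, 14.9% were called at an adjusted p under 0.05, 8.27% as lower and 6.61% as higher in the knockout. The 4 knockout libraries lay below the 4 controls in 9.58% of the genes and above them in 9.29%. The contrast that picked the family is the one counted here, and nothing is read from the members' share.

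Length-scaled levels summed over the 8 genes gave 51.0, 21, 38.8 and 76.4 CPM per kilobase in control replicates 1 to 4. The knockouts held 12.1, 11.9, 14.7 and 12.7. The total was thus lower in each knockout than in each control, with means of 46.8 ± 23.3 and 12.9 ± 1.30. The make-up of this total differed too. Cyp2j5 gave 49.3% ± 15.2 of it in the controls and 5.33% ± 4.83 in the knockouts. Cyp2j6, whose own level did not pass the test, gave 26.5% ± 11.4 in the controls and 66.1% ± 4.84 in the knockouts, and Cyp2j9 6.65% ± 3.68 and 21.5% ± 1.73. The share of Cyp2j11 was 11.2% ± 2.37 and 5.11% ± 1.80, and that of Cyp2j13 5.42% ± 0.939 and 0.638% ± 0.230. A share rises when the others fall, so these percentages describe the mixture and not the level of a gene.

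**Figure D2:**
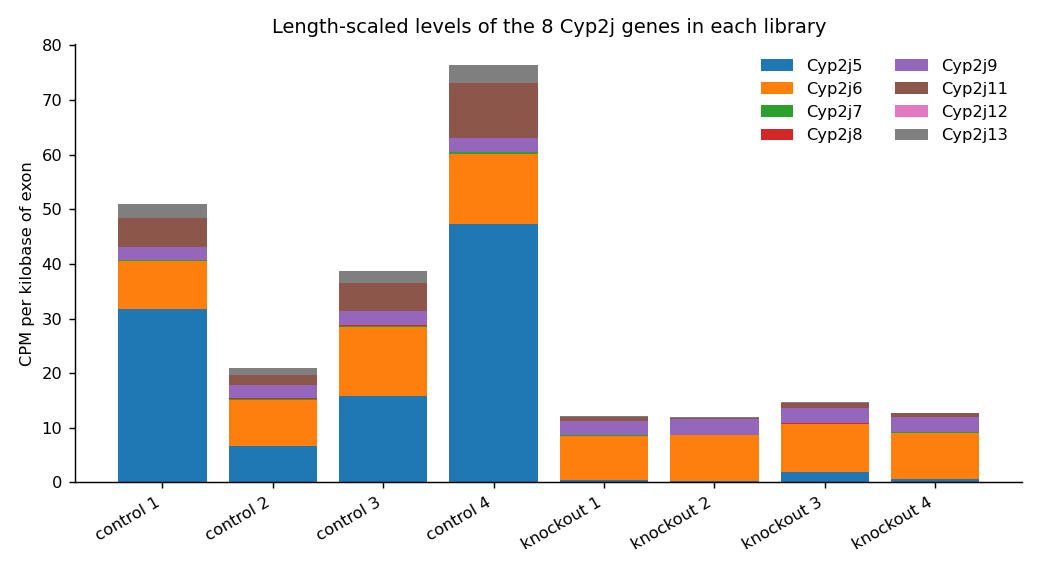
Stacked CPM per kilobase of exon (vertical axis) of the 8 Cyp2j genes in each of the 8 libraries. Cyp2j5 makes up most of the difference between the control totals of 21 to 76.4 and the knockout totals of 11.9 to 14.7, and the Cyp2j6 band lies between 8.11 and 12.7 in each library.

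The members differed in how their levels stood to the proximal tubule markers. The log2 ratio of a member's CPM to the mean log2 CPM of the 14 markers was taken in each library. For Cyp2j11 it was −2.70 ± 0.27 in the controls and −2.20 ± 0.52 in the knockouts, a difference of 0.49, so Cyp2j11 was lower by about as much as the markers. For Cyp2j13 the ratio was −2.45 ± 0.31 in the controls and −3.69 ± 0.71 in the knockouts, a difference of −1.23, and for Cyp2j5 it was −0.32 ± 0.42 and −2.17 ± 0.36, a difference of −1.85. Both were thus lower by more than the markers' mean. Over the single markers the log2 fold changes ran from −4.96 to −1.85, against −4.77 for Cyp2j13 and −5.05 for Cyp2j5. Cyp2j6 and Cyp2j9 went the other way relative to the markers, with differences of 3.03 and 3.45.

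The libraries nearest in marker level were also compared as a pair. By the mean log2 CPM of the markers, control replicate 2 and knockout replicate 3 were nearest, at 4.72 and 3.79. Their marker sums were 596 and 394 CPM, 1.51-fold apart. They also differed in Xist, at 965 and 4.19 CPM, and the part of sex was not tested. Cyp2j13 was 9.59-fold higher in that control, at 6.31 against 0.657 CPM, and Cyp2j5 was 3.70-fold higher, the reverse of their order by the mean ratio to the markers. Cyp2j11 was 1.96-fold higher, while Cyp2j6 and Cyp2j9 were at 0.941 and 0.863 times the knockout level. One library a group allows no test. With the marker level as a covariate in the fit, the log2 fold change of Cyp2j13 was −2.85, that of Cyp2j5 −0.53 (edgeR adjusted p 0.804) and that of Cyp2j11 −0.01 (adjusted p 0.998). That edgeR fit called 0 of the 18485 genes, and 1248 had an unadjusted p under 0.05. Marker level and genotype went together over the 8 libraries, and their parts in these values cannot be told apart.

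**Figure D3:**
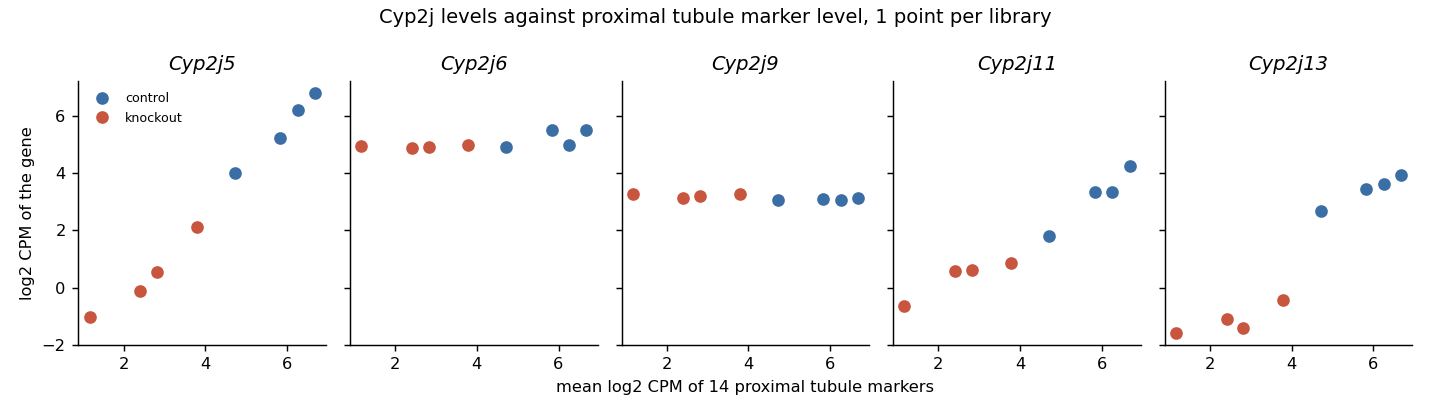
Level of each tested Cyp2j gene (log2 CPM, vertical axis) against the mean log2 CPM of the 14 proximal tubule markers (horizontal axis), 1 point per library, controls blue and knockouts red. Cyp2j5, Cyp2j11 and Cyp2j13 are high where the markers are high, with a step of Cyp2j13 between the control and the knockout nearest in marker level, and Cyp2j6 and Cyp2j9 stay level.

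Sex and adrenal tissue also differed between libraries. Among the 5 libraries with low Xist, control replicates 1, 3 and 4 and knockout replicates 2 and 3, the log2 fold change of Cyp2j5 was −4.87 (edgeR adjusted p 0.0203), that of Cyp2j11 −3.43 (adjusted p 0.0186) and that of Cyp2j13 −4.71. With the adrenal markers as a covariate these were −5.04 (adjusted p 0.0292), −3.27 (adjusted p 0.0290) and −4.81. Control replicate 2, the one control with high Xist, held the lowest level of each of these 3 genes among the controls, and the part of sex in that was not tested.

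The genes most like Cyp2j5, the member of highest level in the controls, and most like Cyp2j13 were sought over the 8 libraries, by the root mean square difference in log2 CPM after each gene was centred on its mean. Closest to Cyp2j5 were Slc22a2, an organic cation transporter, at 0.17, Acsm1 at 0.27, the meprin subunit gene Mep1b at 0.38, the fatty acid omega-hydroxylase gene Cyp4a31 at 0.41 and the monocarboxylate transporter gene Slc5a8 at 0.42. Slc22a2 averaged 29.5 CPM in control and 0.810 CPM in knockout libraries. Closest to Cyp2j13 were the succinate receptor gene Sucnr1 at 0.37, Slc22a29 at 0.42, Slc5a10 at 0.43, the acetyltransferase gene Nat8 at 0.45 and Acmsd, an enzyme of tryptophan breakdown, at 0.53. Sucnr1 averaged 6.80 and 0.192 CPM. For Cyp2j11, looked up after its values were seen, the closest were Slc6a13 at 0.25, the potassium channel gene Kcnj15 at 0.26, Slc39a5 at 0.26, Mfsd4b3 at 0.27 and Slc12a3 at 0.29. Among the members themselves, Cyp2j5 and Cyp2j13 differed by 0.78, Cyp2j11 and Cyp2j13 by 0.96, and Cyp2j5 and Cyp2j11 by 1.31. Cyp2j6 and Cyp2j9, which lie side by side and were not called, differed by 0.28, and Cyp2j6 and Cyp2j13 by 2.16. The closest genes are the smallest differences of a search over many genes, so they cannot be set against these fixed pairs. The points share the same 8 libraries and the contrast, so likeness is a description.

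Genes beside the cluster were compared in the same fit. Within 1 Mb of its ends 6 genes besides the members were tested, and 1 was called, against the 14.9% of all genes. Fggy, a carbohydrate kinase gene at lower coordinates than Cyp2j13 (ENSMUSG00000028573, chromosome 4, 95557507 to 95926939), fell from 18.8 ± 5.89 to 9.69 ± 1.25 CPM, for a log2 fold change of −0.95 (SE 0.22, edgeR adjusted p 0.0263). With 1 library removed it passed in 2 of 8 fits, those without control replicate 2 (adjusted p 0.00217) and without knockout replicate 3 (0.0263), and the highest adjusted p was 0.0850 without knockout replicate 4. Hook1, a gene for a microtubule-linked adaptor that lies directly beside Cyp2j13 (ENSMUSG00000028572, 95967240 to 96025413), was at 54.0 ± 4.85 and 45.8 ± 1.39 CPM, with a log2 fold change of −0.24 (SE 0.07, edgeR adjusted p 0.0595). Its groups did not overlap, and it passed in 1 of those 8 fits, without control replicate 2. On the far side of Cyp2j5 the nearest tested protein-coding gene, E130114P18Rik, was at 0.509 ± 0.220 and 0.585 ± 0.382 CPM (log2 change 0.17 with SE 0.49, adjusted p 0.83). Jun, Junos and Gm12696 did not pass either.

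**Figure D4:**
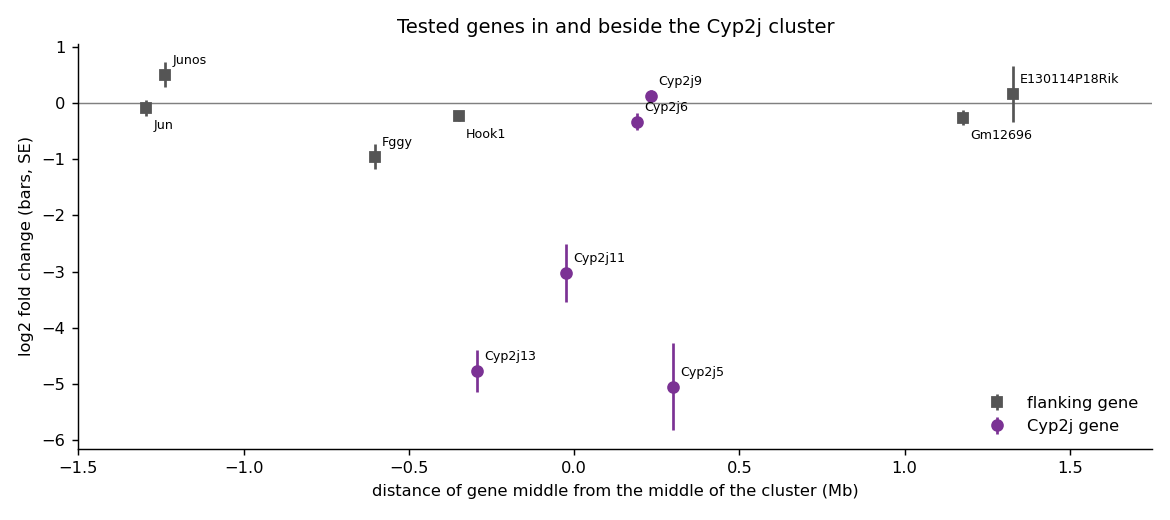
Log2 fold change of knockout against control (vertical axis, bars are the SE) of the 5 tested Cyp2j genes (purple circles) and 6 tested flanking genes (grey squares) by the distance of the gene's middle from the middle of the cluster in megabases. The members at −4.77, −3.02 and −5.05 are interleaved with Cyp2j6 and Cyp2j9 near 0, and the flanking genes lie between −0.95 and 0.51.

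The other genes of arachidonate metabolism were taken from 10 lists of 107 genes, chosen for their roles. Of the 106 that were matched, 69 passed the filter and 22 were called, 15 lower and 7 higher in the knockout, against 14.9% of all genes. The median log2 fold change over the 69 was −0.19, and over all genes tested it was 0.0044. These counts rest on single libraries, with 2 calls without knockout replicate 4, 6 to 9 without any 1 of control replicates 1, 3 and 4 or knockout replicates 1 and 2, 24 without knockout replicate 3 and 33 without control replicate 2. With the proximal marker covariate 0 were called by edgeR, and 6 had an unadjusted p under 0.05, so here too the part of the proximal tubule markers cannot be told apart from that of genotype. In each list genes of highest level are described, and other called genes were named after their values were seen.

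Of the phospholipases A2, which supply the substrate, 2 of 6 tested genes were called, both lower. Pla2g12a fell from 43.2 ± 2.59 to 33.6 ± 2.08 CPM (log2 change −0.36 with SE 0.07, edgeR adjusted p 0.0193) and Pla2g16 from 22.4 ± 6.70 to 13.1 ± 0.614 CPM (log2 change −0.78 with SE 0.20, adjusted p 0.0353). Pla2g4a, the cytosolic enzyme best known for arachidonate release, was at 57.6 ± 6.11 and 59.1 ± 7.01 CPM (adjusted p 0.817). The electron donors were abundant in both groups. Of 4 tested, cytochrome b5 (Cyb5a) was called, falling from 136 ± 24.1 to 87.8 ± 8.06 CPM (log2 change −0.63 with SE 0.13, adjusted p 0.0205), and Cyb5b, at 252 ± 43.7 and 208 ± 31.8 CPM, and Cyb5r3, at 175 ± 3.62 and 171 ± 8.28 CPM, were not. With 1 library removed, each of these 3 calls held in 2 of 8 fits, and without knockout replicate 4 the adjusted p values were 0.0652, 0.101 and 0.0698.

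The second epoxygenase family, Cyp2c, was close to absent from these libraries. Of 15 matched genes only Cyp2c23 passed the filter, at 0.627 ± 0.367 CPM in the controls and 0.393 ± 0.0889 in the knockouts, and 4 of the others had 0 counts in each library. Of 7 tested genes of other Cyp2 families 2 were called, both lower. Cyp2d26 fell from 50.4 ± 25.7 to 3.46 ± 2.47 CPM (log2 change −3.83 with SE 0.58, edgeR adjusted p 0.0110), and Cyp2e1 from 5.56 ± 3.62 to 0.512 ± 0.407 CPM (log2 change −3.39, adjusted p 0.0194). Cyp2d22, at 45.6 ± 10.7 and 59.9 ± 12.0 CPM, and Cyp2s1, at 32.0 ± 6.02 and 32.9 ± 5.70 CPM, did not pass. The call of Cyp2d26 was lost without knockout replicate 4 (adjusted p 0.0530) and that of Cyp2e1 in 5 of the 8 such fits, with the highest adjusted p, 0.0566, without knockout replicate 1.

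The omega-hydroxylases, a class with members that turn arachidonic acid into the vasoconstrictor hydroxyeicosatetraenoic acid, moved both ways. Which of the listed genes do so was not examined. Cyp4a12a and Cyp4a12b, with 2 and 14 counts over all libraries, did not pass the filter. Of 7 tested, 4 were called. The Cyp4a genes Cyp4a31 and Cyp4a10 were lower, Cyp4a31 from 29.1 ± 20.3 to 1.23 ± 1.02 CPM (log2 change −4.50, edgeR adjusted p 0.0128) and Cyp4a10 from 11.3 ± 10.2 to 0.417 ± 0.344 CPM (log2 change −4.69, adjusted p 0.0159). The Cyp4f genes Cyp4f16 and Cyp4f17 were higher, by 0.30 (SE 0.07, adjusted p 0.0296) and 0.57 (SE 0.12, adjusted p 0.0211) on the log2 scale. Cyp4f13, at 18.4 ± 2.08 and 20.3 ± 1.73 CPM, was not called. Near-identical copies exist among the Cyp4a genes, so the split of reads between them is uncertain. The soluble epoxide hydrolase gene Ephx2, which removes the products of the Cyp2j enzymes, fell from 12.4 ± 3.79 to 6.18 ± 1.96 CPM (log2 change −1.0 with SE 0.27, adjusted p 0.0395). Its groups overlapped, and neither the microsomal enzyme gene Ephx1, at 21.6 ± 4.0 and 17.4 ± 1.64 CPM, nor Ephx4 was called. With 1 library left out, Cyp4a31 passed in 7 of 8 fits, Cyp4a10 in 6, Cyp4f17 in 3, and Cyp4f16 and Ephx2 in 2 each. Their highest adjusted p values were 0.0544, 0.0617, 0.0689 and, for Ephx2, 0.113 without knockout replicate 4, and 0.0897 for Cyp4f16 without control replicate 3.

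In the cyclooxygenase branch 4 of 12 tested genes were called. Cbr1, for a carbonyl reductase, fell from 160 ± 48.5 to 80.3 ± 12.9 CPM (log2 change −0.99, edgeR adjusted p 0.0231), and Ptges2 by 0.78 on the log2 scale (adjusted p 0.0340). The prostacyclin synthase gene Ptgis rose from 47.3 ± 10.5 to 89.3 ± 16.5 CPM (log2 change 0.92, adjusted p 0.0194), and Ptgr1 rose by 0.69 on the log2 scale (adjusted p 0.0159). Ptges3, the gene of highest CPM in this list, stood at 158 ± 14.7 and 160 ± 10.1 CPM. In the lipoxygenase branch 3 of 8 were called. Alox5 and its activating protein gene Alox5ap rose, Alox5ap from 8.30 ± 0.757 to 13.9 ± 0.955 CPM (log2 change 0.74, adjusted p 0.0110) and Alox5 from 0.383 ± 0.167 to 1.20 ± 0.222 CPM (log2 change 1.64, adjusted p 0.0227). Alox15 fell from 3.13 ± 0.606 to 0.785 ± 0.223 CPM (log2 change −1.98, adjusted p 0.00815). The leukocyte marker Ptprc, named after its values were seen, was higher in the same libraries, at 38.6 ± 3.07 CPM in the knockouts against 20.3 ± 4.99 in the controls (log2 change 0.93, adjusted p 0.0146, and 0.0571 without knockout replicate 4). It was the 1 called gene of 5 tested leukocyte markers. Of the others, Csf1r and Lyz2 had log2 fold changes of −0.40 and −0.03, and Cd68 and Cd79a of 0.30 and 0.09. Sums of the list were 75.3 to 86.8 CPM in the controls and 77.0 to 103 CPM in the knockouts. The part of these markers in the lipoxygenase values was not tested. Lta4h, at 92.2 ± 5.27 and 85.8 ± 3.53 CPM, and Alox12, at 6.75 ± 1.65 and 5.42 ± 1.09 CPM, did not pass. Alox5ap and Alox15 passed in each of 8 fits with 1 library removed. Ptgr1 passed in 7, Ptgis in 4, and Cbr1, Ptges2 and Alox5 in 2 each, and without knockout replicate 4 their adjusted p values were 0.0569, 0.0697, 0.0776, 0.0935 and 0.0681.

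Among receptors and targets 2 of 5 tested genes were called. The potassium channel gene Kcnma1 rose from 3.55 ± 0.395 to 5.50 ± 0.167 CPM (log2 change 0.63 with SE 0.14, edgeR adjusted p 0.0252), and the nuclear receptor gene Ppara fell from 4.24 ± 1.32 to 1.49 ± 0.863 CPM (log2 change −1.49, adjusted p 0.0473). Trpv4, a calcium channel opened by epoxyeicosatrienoic acids, was at 51.4 ± 8.10 and 48.7 ± 5.45 CPM and did not pass (adjusted p 0.675), nor did Pparg at 5.07 ± 1.15 and 3.89 ± 1.15 CPM. Of 16 transcription factors that may act on P450 genes, 3 were called, each lower. Hnf4a, a nuclear receptor of the proximal tubule, fell from 115 ± 40.8 to 23.9 ± 14.1 CPM (log2 change −2.26 with SE 0.57, adjusted p 0.0336). Nr1h4, the bile acid receptor gene, fell by 2.18 on the log2 scale (adjusted p 0.0408). Rxra stood at 88.8 ± 4.0 and 88.1 ± 13.1 CPM. With 1 library left out Hnf4a and Nr1h4 passed in 3 of 8 fits, and Kcnma1 and Ppara in 2. Without knockout replicate 4 the adjusted p values of Hnf4a and Nr1h4 were 0.0939 and 0.118, and without control replicate 3 those of Kcnma1 and Ppara were 0.0812 and 0.127.

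**Figure D5:**
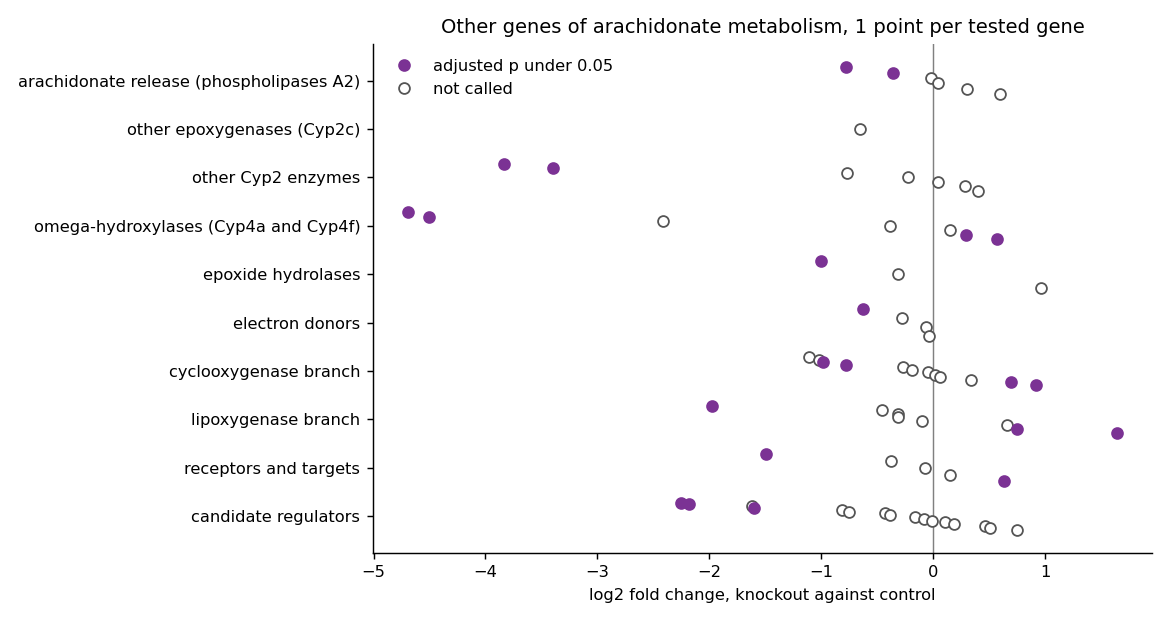
Log2 fold change of knockout against control (horizontal axis) of each of the 69 tested genes, counted once per list, in the 10 lists of arachidonate metabolism (vertical axis); filled points passed an adjusted p under 0.05. The 22 called genes range from Cyp4a10 at −4.69 to Alox5 at 1.64, and the largest falls are among the Cyp2 and Cyp4a enzymes.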

How the data were processed

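Per the file headers, the authors deposited unnormalised whole-number read counts per gene, with exon coordinates and length. The submitters' processing notes name Trimmomatic 0.36, STAR 2.5.2b, featureCounts of Subread 1.5.2, DESeq2 and GRCm38. How strand and multiply matching reads were handled is not given in the sources used here. Of 48970 IDs with a symbol, 91.4% had the position of GENCODE M21, and the table of the whole series differed in 0 cells. No 2 libraries agreed within sampling noise (chi-square per degree of freedom 11.0 to 93.1 over 28 pairs).

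Groups follow the sample titles. Counts were scaled by TMM (the trimmed mean of M values), filtered with filterByExpr at its defaults and compared by the quasi-likelihood test of edgeR 4.0.16 (R 4.3.3) without covariates. Benjamini-Hochberg adjustment ran over 18485 genes, and a call is an adjusted p under 0.05. Adjusted p values are edgeR's. CPM uses TMM library sizes, and log2 CPM a prior count of 2. The steps were tested on simulated data.

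The text names the 8 members, Kdm1a, the 3 tested genes of highest level in each pathway list, the nearest tested protein-coding gene on either side and any called one within 1 Mb, and the 5 genes of at least 1 CPM most like Cyp2j13 and Cyp2j5. Some results of these lists are not reported here. Members and lists were chosen with earlier results of these data known. Alternatives were DESeq2 size factors, DESeq2 1.42.0, limma-voom (limma 3.58.1), 2 other filters, a replicate block, covariates for Y-linked, proximal tubule and adrenal markers, libraries left out, low-Xist libraries, other windows, unscaled CPM and a shorter marker list. Deviations of same-numbered libraries correlated at −0.11 to 0.33. Differently numbered libraries were not compared, so these values cannot decide whether the numbers pair the libraries.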

Additional observations from a re-analysis of the deposited data

Results flagged for a closer look

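Single libraries stood apart from the other 3 of their group by Dixon's gap test at its 95% level, which marks about 1 group in 20 by chance. Among the members these were Cyp2j9 in control replicate 4 at 8.73 CPM and Cyp2j12 in knockout replicate 4 at 0.0360 CPM, which is 1 count. Knockout replicate 3 was the highest knockout for Fggy at 11.6 CPM, Slc5a10 at 0.657 CPM, Mep1b at 2.66 CPM and Slc5a8 at 3.08 CPM. Control replicate 2 stood apart for Pla2g4a at 48.5 CPM and Alox15 at 4.03 CPM, knockout replicate 2 for E130114P18Rik at 1.15 CPM and knockout replicate 4 for Kcnma1 at 5.25 CPM. The adrenal marker sum stood apart at 144 CPM in control replicate 4 and 2668 CPM in knockout replicate 1.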

How the results depend on the processing

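With the proximal tubule covariate the log2 fold changes of Cyp2j5, Cyp2j11 and Cyp2j13 were −0.53, −0.01 and −2.85, against −5.05, −3.02 and −4.77 without it. Under the other alternatives the 3 genes were lower in the knockout. Of the 4 tested members other than Cyp2j13, edgeR called 2, and the count was 0 with that covariate (0 at an unadjusted p under 0.05) and 0 to 3 with 1 library left out, with 0 without knockout replicate 4 (2 at an unadjusted p under 0.05). It was 2 with DESeq2 and 3 with limma-voom. With that covariate 0 genes, pathway genes and flanking genes were called. Over all genes the count was 2751, against 4506 with DESeq2, 8302 with limma-voom, 1224 with the adrenal covariate, 7903 without control replicate 2 and knockout replicate 3, and 153 to 7084 with 1 library left out. Pathway calls, 22 in the comparison above, numbered 39 with limma-voom, 13 with the adrenal covariate, 38 without those 2 libraries and 2 to 33 with 1 left out. Flanking calls numbered 2 with DESeq2, 3 with limma-voom, 0 with the adrenal covariate, 3 without those 2 libraries, 3 within 2 Mb (Lrrc19, Patj and Fggy, the first 2 named after their values were seen) and 0 to 3 with 1 left out. The replicate block, a fit with the replicate number as a term, gave 3229 calls over all genes, 2 members other than Cyp2j13, 25 pathway genes and 1 flanking gene. The cause of these shifts was not tested.

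Log2 fold changes of named genes changed sign in 47 alternative values, each of them without a call. The proximal covariate gave 0.013 for Cyp2j6, 0.050 for Pla2g16, 0.98 for Cyp2c23, −0.17 for Cyp2d22, 0.24 for Ephx1, 0.39 for Ephx2, −0.67 for Ephx4, 0.41 for Cyb5b, 0.028 for Cyb5a, −0.28 for Ptges3, 0.075 for Cbr1, 0.24 for Ptges2, 0.031 for Lta4h, 0.62 for Alox12, 0.47 for Trpv4, 0.73 for Pparg, 0.14 for Ppara, 0.39 for Rxra, 0.51 for Hnf4a, 0.28 for Nr1h4, 0.38 for Cyp4a10 and −1.77 for E130114P18Rik. Limma-voom gave −0.070 for Pla2g4a and −0.050 for Cyp2s1, and leaving out control replicate 2 with knockout replicate 3 gave −0.12 and −0.14. No filter on low counts gave −0.0033 for Ptges3. For Rxra the Y-linked covariate gave 0.028, the adrenal covariate 0.038 and low-Xist libraries 0.057, and for Cyb5r3 these libraries gave 0.018. With 1 library left out, the values ran from −0.037 to 0.094 for Pla2g4a, −0.043 to 0.16 for Cyp2s1, −0.054 to 0.013 for Cyb5r3, −0.031 to 0.081 for Ptges3, −0.10 to 0.034 for Rxra and −0.36 to 0.35 for E130114P18Rik. The log2 fold change of Cyp2j13 ran from −5.13 to −4.59 with 1 library left out and was −5.35 without control replicate 2 and knockout replicate 3. Depth limits Cyp2j7, Cyp2j8 and Cyp2j12, which had at most 10 counts in a library.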
